A study of Rattus norvegicus and Mus musculus with 12 samples.

Results

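The expression of 10 antioxidant genes was followed in rat and mouse articular chondrocytes with and without IL-1β. They were taken as the rows of the deposited tables whose gene name is Nfe2l2, Keap1, Hmox1, Nqo1, Gclc, Gclm, Txnrd1, Sod1, Sod2 or Sod3. All 10 were found once in each table, among 19687 rat genes and 28603 mouse genes, and all 10 passed the filter on low counts in both species. NRF2, the protein of Nfe2l2, is a transcription factor that is held in the cytoplasm and sent for degradation by KEAP1. When KEAP1 is modified by oxidants or electrophiles, NRF2 accumulates, pairs with small MAF proteins and binds antioxidant response elements at genes for glutathione synthesis, the thioredoxin system, quinone reduction and haem breakdown. Superoxide dismutases turn superoxide into hydrogen peroxide in the cytosol (SOD1), in mitochondria (SOD2) and in the extracellular matrix (SOD3), and Sod2 is also a well-known target of NF-κB.

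The RC and RM groups were passage 1 chondrocytes of newborn Sprague–Dawley rats, and the MC and MM groups were such cells of newborn mice, with 3 libraries in each of the 4 groups. The cells came from articular cartilage and were grown in medium with serum, and the RM and MM groups received 20 ng/ml IL-1β for 24 h, whereas the RC and MC groups did not. The study names C57BL/6 for all mice, but the strain labels change from library to library, up to C57BL/9 in the MM group. The study calls the 3 samples of each group independent, but whether a library stands for 1 animal or a pool is not given. P values therefore measure only the spread between these samples, which may be technical.

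The libraries held between 16841580 and 25903459 counted reads. The FPKM is the count scaled to gene length and to the total of the library. The merged exon length used for it can differ widely between the species (2063 bases for rat Sod2 and 10008 for mouse Sod2), and the tables were made separately, so levels of rat and mouse are set side by side and not compared. Within a species, model and control were compared by the quasi-likelihood test of edgeR, and a gene was called when its Benjamini-Hochberg adjusted P over all genes tested was under 0.05. Scaling by TMM, edgeR's correction for differences in library composition, matters in mouse. Over all mouse genes tested, the median log2 value was -0.016 under TMM scaling and -0.295 when scaled by library size alone, whereas in rat these were 0.0052 and 0.021. SE is the standard error of a log2 fold change. All 10 chondrocyte markers, among them Col2a1, Acan and Sox9, were detected in every group and were called lower with IL-1β in both species. Their summed FPKM lay between 5080 and 5720 in RC, 2010 and 2050 in RM, 2400 and 2450 in MC and 210 and 224 in MM. Of the macrophage and leukocyte markers, 5 of 8 were in the rat table. Their sum lay between 16.3 and 18.4 in RC and between 29.5 and 31.8 in RM. In mouse it lay between 5.89 and 6.13 in MC and between 32.2 and 33.8 in MM, mostly from Cd14 and Cd68, while Ptprc, the pan-leukocyte gene, summed to 3 counts in MC and 1 in MM, and Itgam had 0 in both. Of these markers, 3 were tested in each species, namely Cd14, Cd68 and Csf1r. In rat, Cd14 and Cd68 were called higher (66.7%, against 18.3% of all genes tested). Csf1r was called lower in rat (33.3%, against 16.8%, log2 fold change -1.20, adjusted P = 0.00269). In mouse all 3, Csf1r among them, were called higher (100%, against 37.4%), with log2 fold changes between 0.70 and 3.96. The fibroblast markers were mixed. In rat, 2 of 8 (25%) were called higher and 3 (37.5%) lower, against 18.3% and 16.8% of all genes tested. In mouse, 4 of 7 (57.1%) were called higher and 3 (42.9%) lower, against 37.4% and 37.7%. Their summed FPKM was 3670 to 4210 in RC, 2800 to 2910 in RM, 2300 to 2320 in MC and 1600 to 1620 in MM. Those called lower in rat were Col1a1, Col3a1 and Pi16 (log2 fold changes -0.90, -0.98 and -0.66). Those called lower in mouse were Col1a1, Dpt and Thy1 (-1.48, -3.06 and -1.56). Prg4, the lubricin gene that superficial chondrocytes also express, rose 55.4-fold in rat and 10.3-fold in mouse. Dcn, the decorin gene that cartilage also expresses, rose 4.83-fold in rat and 31.9-fold in mouse. Col3a1 and Pdgfra were also called higher in mouse (0.16 and 0.26). The part of other cells in the results below was not tested, and in bulk samples fewer cells of a type and less RNA per cell cannot be told apart.

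In mouse, 9 of the 10 antioxidant genes were called higher with IL-1β, and the other, Keap1, was just outside the threshold. The background is high, since 75% of all mouse genes tested were called, 37.4% as higher and 37.7% as lower. The median log2 fold change of the 10 genes was 2.3, against -0.016 for all genes tested, and 8 of them rose by between 1.32 and 3.43 on the log2 scale. The remaining call, Sod1, was small and changed sign with the scaling. In rat, 1 of the 10 genes (Sod2) was called higher in the RM group and 3 (Hmox1, Nqo1 and Sod3) were called lower, where 35.1% of all rat genes tested were called, 18.3% as higher and 16.8% as lower. Their median was 0.0080. The response in mouse less that in rat differed from 0 for 9 of the 10 genes, against 63.8% of the 10913 shared genes tested, with 8 positive (background 31.4%) and 1, Sod2, negative (32.3%). Of the 8, Keap1 turned negative without TMM. On the FPKM scale, the ranges of model and control did not overlap for all 10 genes in mouse, 8 higher and 2 (Keap1 and Sod1) lower, where this held for 80.3% of all genes tested (25.4% higher and 54.9% lower). In rat it held for 6, 3 higher and 3 lower, against 47.8% of all genes tested (25.5% higher and 22.3% lower).

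**Figure D1:**
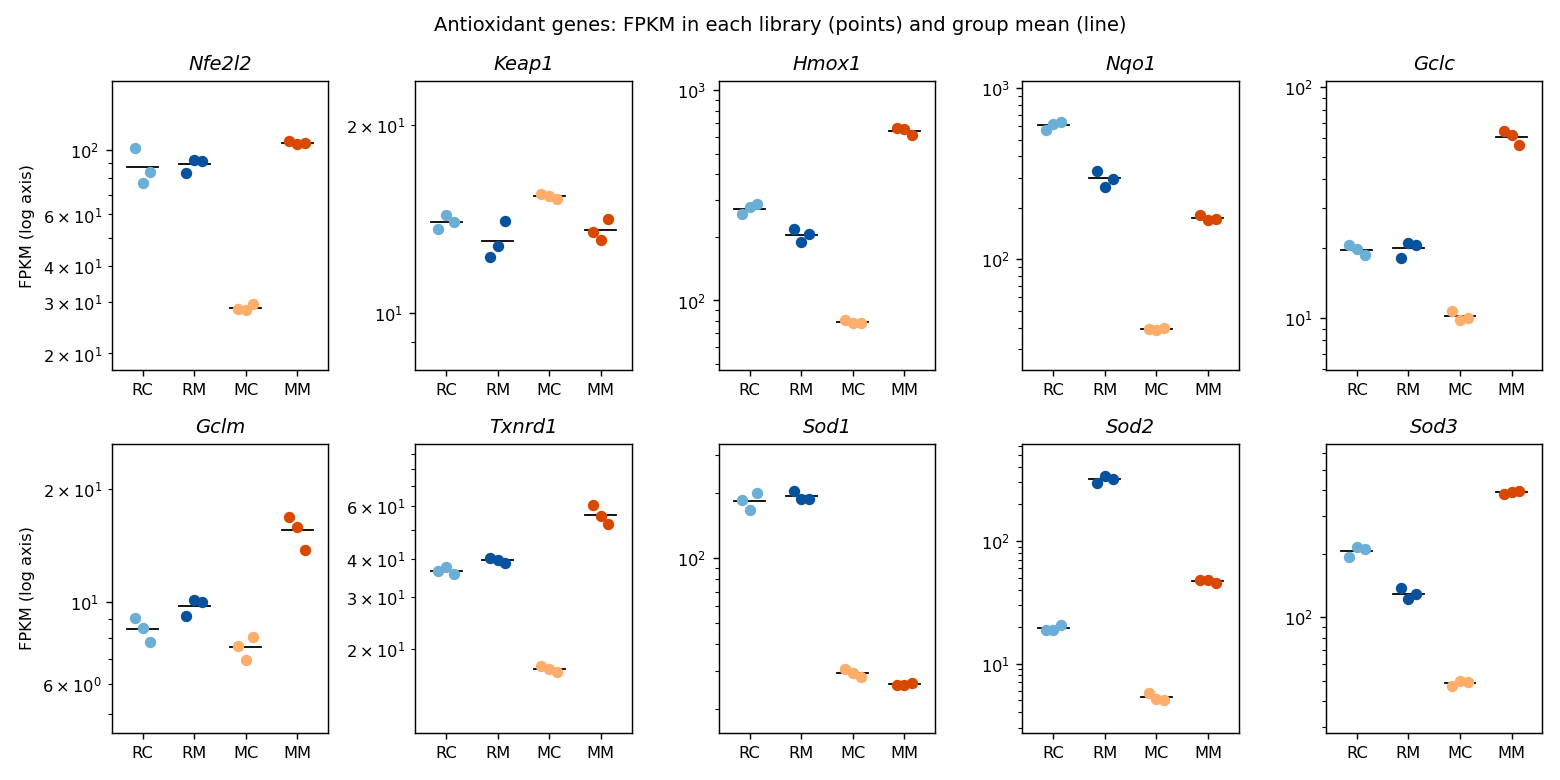
Each panel shows 1 gene, with FPKM on a log axis, 1 point per library in the RC, RM, MC and MM groups and a line at the group mean. The MM points lie far above the MC points for Nfe2l2, Hmox1, Nqo1, Gclc, Gclm, Txnrd1, Sod2 and Sod3, whereas Sod2 shows the one large step upward from RC to RM, and Nqo1 and Sod3 step down.

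**Figure D2:**
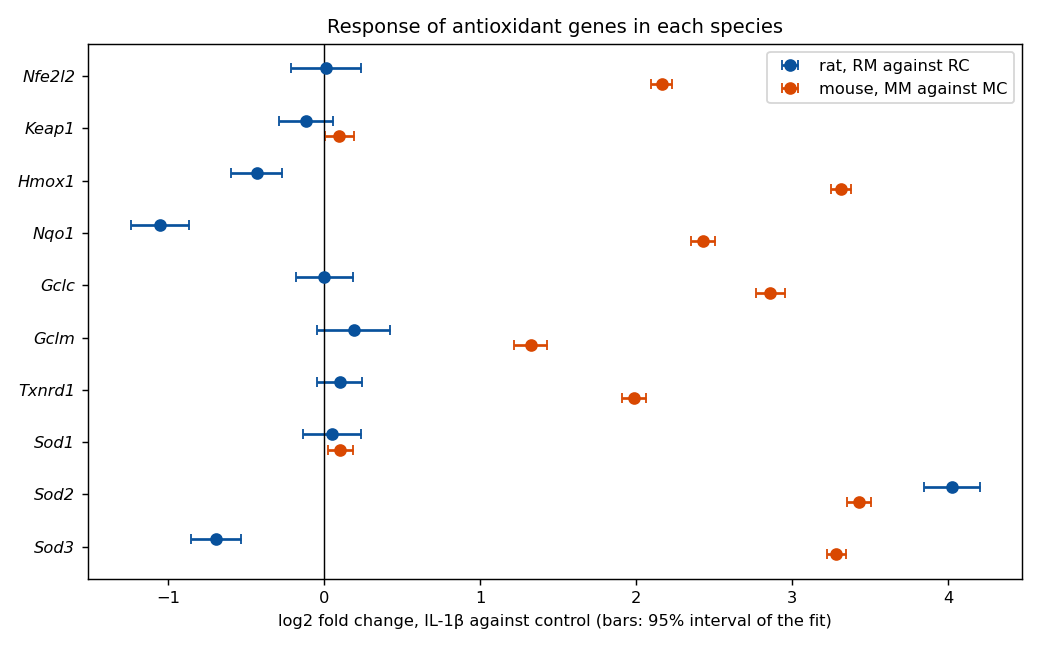
Points give the log2 fold change of each gene with IL-1β against control from edgeR, in rat (RM against RC) and mouse (MM against MC), and bars give its 95% interval from the fit. The rat and mouse points lie on opposite sides of 0 for Hmox1, Nqo1 and Sod3, whose rat values run from -1.05 to -0.43 and mouse values from 2.43 to 3.31.

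The regulators were examined first. In mouse, Nfe2l2 (ENSMUSG00000015839, GRCm38 chromosome 2, 75675513 to 75704641) had an FPKM of 28.4, 28.1 and 29.5 in the MC libraries and 107.4, 104.6 and 105.6 in the MM libraries. The groups lay far apart, and the log2 change was 2.16 (SE 0.034, adjusted P = 5.56e-55), a 4.48-fold rise. In rat, Nfe2l2 (ENSRNOG00000001548) had an FPKM of 101.8, 76.7 and 83.6 in the RC libraries and 83.6, 92.4 and 91.7 in the RM libraries. These ranges overlapped, with RC replicate 1 the highest of all 6, and the log2 fold change was 0.014 with a 95% interval of -0.21 to 0.24 (adjusted P = 0.934). The difference between the species was 2.15 (SE 0.11, adjusted P = 3.47e-11). Keap1, whose protein is the substrate adaptor of the ubiquitin ligase that marks NRF2 for degradation, hardly moved in either species. Its rat FPKM was 13.6, 14.3 and 14.0 in RC and 12.3, 12.8 and 14.1 in RM, which overlapped, and the log2 fold change was -0.12 (95% interval -0.29 to 0.057, adjusted P = 0.277). In mouse, Keap1 (ENSMUSG00000003308, chromosome 9, 21229730 to 21239361) had an FPKM of 15.5, 15.4 and 15.2 in MC and 13.5, 13.1 and 14.1 in MM. All MM values were lower on the FPKM scale, while with TMM the log2 change was 0.097 (SE 0.046, adjusted P = 0.0534), and with library size alone it was -0.18 (adjusted P = 0.000335 for Keap1, MM against MC), so the direction depends on the scaling and no direction is given. It was called higher without MM replicate 2 (0.13, adjusted P = 0.0271). The difference of Keap1 between the species, 0.21 (adjusted P = 0.0426), was lost with library size alone (-0.08, adjusted P = 0.414), with the replicate block and without any 1 of 9 of the 12 libraries (it held without RC replicate 1, RM replicate 3 or MM replicate 2). An antisense gene, Gm16754, shares 10.9% of the exon bases of mouse Keap1, and without strand reads of the pair cannot be told apart.

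Hmox1 and Nqo1, both among the best-known NRF2 targets, moved in opposite directions in the species. Hmox1 encodes haem oxygenase 1, which breaks haem down to biliverdin, carbon monoxide and iron. In mouse (ENSMUSG00000005413, chromosome 8, 75093621 to 75100589) its FPKM was 80.4, 77.9 and 77.8 in MC and 663.4, 654.9 and 613.3 in MM. This was a 9.93-fold rise with no overlap (log2 fold change 3.31, SE 0.032, adjusted P = 2.57e-66). In the MM group, the mean FPKM of Hmox1 was at or above that of 99.7% of the genes tested. In rat (ENSRNOG00000014117) its FPKM was 257.4, 277.8 and 286.4 in RC and 219.5, 189.5 and 207.1 in RM. Every RM library lay below every RC library, and the log2 change was -0.43 (SE 0.074, adjusted P = 0.00125). Of the 5 erythroid markers listed, only 2 were in the rat table and 3 in the mouse table, and the others could not be examined. The summed FPKM of those present stayed at or under 0.425 in every library.

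Nqo1 encodes a quinone reductase that uses NADH or NADPH. In mouse (ENSMUSG00000003849, chromosome 8, 107388225 to 107403206) its FPKM was 39.5, 38.9 and 40.1 in MC and 182.4, 170.9 and 172.6 in MM (log2 fold change 2.43, SE 0.039, adjusted P = 2.00e-54). The MM values were all above the MC values by more than 4 times. In rat (ENSRNOG00000012772) the FPKM was 571.0, 618.6 and 636.9 in the RC group, where the mean of Nqo1 was at or above that of 99.3% of the genes tested. It fell to 329.2, 264.7 and 296.2 in the RM group (log2 fold change -1.05, SE 0.084, adjusted P = 7.24e-06). The differences between the species were 3.74 for Hmox1 (SE 0.086, adjusted P = 2.56e-15) and 3.48 for Nqo1 (SE 0.098, adjusted P = 2.09e-14). Together with Sod3, 3 of the 10 genes were called lower in rat and higher in mouse, a class that holds 5.18% of all shared genes tested.

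Glutathione synthesis starts with glutamate-cysteine ligase, whose catalytic subunit is the protein of Gclc and whose modifier subunit is that of Gclm. Both rose in mouse. Gclc (ENSMUSG00000032350, chromosome 9, 77754535 to 77794485) had an FPKM of 10.8, 9.79 and 10.0 in MC and 64.5, 62.2 and 56.4 in MM, a 7.26-fold rise (log2 fold change 2.86, SE 0.046, adjusted P = 4.24e-54). Gclm (ENSMUSG00000028124, chromosome 3, 122245557 to 122270732) had an FPKM of 7.59, 6.97 and 8.04 in MC and 16.9, 15.8 and 13.8 in MM, a 2.50-fold rise (log2 fold change 1.32, SE 0.053, adjusted P = 4.42e-32). Neither pair of groups overlapped. In mouse Gclm, exon bases are shared with Gm17494 on the opposite strand (4.71%) and with the pseudogene Gm6061 (3.88%). The counts of Gclm are uncertain there, and how many reads this concerns was not examined. The catalytic subunit rose more than the modifier subunit, and the ratio of Gclc to Gclm FPKM, computed after the values of both were seen, went from 1.42, 1.41 and 1.25 in the MC group to 3.81, 3.93 and 4.09 in the MM group.

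In rat, neither subunit was called. Gclc (ENSRNOG00000006302) had an FPKM of 20.7, 19.9 and 18.7 in RC and 18.3, 21.1 and 20.7 in RM, with overlapping ranges and a log2 fold change of 0.0021 (95% interval -0.18 to 0.19, adjusted P = 0.989). Gclm (ENSRNOG00000013409) had an FPKM of 9.03, 8.52 and 7.81 in RC and 9.14, 10.1 and 10.0 in RM. These RM values lay just above the RC values, and the log2 fold change was 0.19 (95% interval -0.042 to 0.42, adjusted P = 0.186). The ratio of Gclc to Gclm was 2.3, 2.33 and 2.4 in RC and 2, 2.09 and 2.07 in RM. The differences between the species were 2.86 for Gclc (SE 0.10, adjusted P = 3.37e-13) and 1.13 for Gclm (SE 0.13, adjusted P = 6.74e-07).

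Txnrd1 encodes the cytosolic thioredoxin reductase, a selenoprotein that keeps thioredoxin reduced with NADPH. In mouse (ENSMUSG00000020250, chromosome 10, 82833951 to 82897712) its FPKM was 17.7, 17.2 and 16.8 in MC and 60.7, 55.7 and 52.3 in MM. The rise was 3.96-fold, with 1.99 as log2 fold change (SE 0.038, adjusted P = 5.37e-50). In rat (ENSRNOG00000009088) the FPKM was 36.5, 37.7 and 35.7 in RC and 40.5, 39.8 and 38.9 in RM. The RM values were all higher, but by little, and the log2 fold change was 0.10 (95% interval -0.044 to 0.25, adjusted P = 0.258). The difference between the species was 1.88 (SE 0.080, adjusted P = 2.75e-12). Nfe2l2, Gclc, Gclm and Txnrd1, as well as Sod1, fell into the class not called in rat and called higher in mouse, which holds 24.5% of the shared genes tested.

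The rat promoters of these genes were searched for the core of the antioxidant response element, which is the sequence that NRF2 with a small MAF protein is known to bind. The core searched was TGACNNNGC, on both strands, from 250 bases before to 50 bases after the start. RefSeq promoters of the rat assembly GRCr8 were matched by symbol for 8 of the 10 genes, with 9 windows since Txnrd1 has a pair. Hmox1 and Sod3 had no promoter there and were not searched. A match was found in 4 windows, those of Gclm (at position -172 from the start), Sod2 (-35), Nfe2l2 (39) and one of Txnrd1 (-78). Of all 33469 promoters in the table, 12.1% held it. The bases before the start are shown for the 3 genes with a match there, Gclm and Txnrd1 because they rose in mouse and were not called in rat, and Sod2 because it rose in both. They are read from chr2:213031885-213032134 (plus strand), chr7:22755905-22756154 (minus strand) and chr1:50050169-50050418 (minus strand), and capitals mark the match, which lies on the strand opposite to the gene in each, so that it reads as the reverse complement of the core.
Gclm: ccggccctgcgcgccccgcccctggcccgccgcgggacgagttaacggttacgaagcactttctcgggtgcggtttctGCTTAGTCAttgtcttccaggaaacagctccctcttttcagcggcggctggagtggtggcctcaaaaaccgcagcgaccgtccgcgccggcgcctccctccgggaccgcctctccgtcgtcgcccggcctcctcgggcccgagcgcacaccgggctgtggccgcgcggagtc
Txnrd1: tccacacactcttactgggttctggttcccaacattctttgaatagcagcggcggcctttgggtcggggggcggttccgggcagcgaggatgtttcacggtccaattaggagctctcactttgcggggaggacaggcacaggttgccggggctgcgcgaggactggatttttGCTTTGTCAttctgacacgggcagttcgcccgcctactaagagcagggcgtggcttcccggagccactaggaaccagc
Sod2: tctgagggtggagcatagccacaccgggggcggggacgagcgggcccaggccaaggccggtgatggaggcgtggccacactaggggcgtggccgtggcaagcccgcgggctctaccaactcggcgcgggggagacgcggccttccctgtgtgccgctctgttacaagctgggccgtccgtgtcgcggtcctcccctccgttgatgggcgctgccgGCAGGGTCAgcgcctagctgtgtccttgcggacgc
The AP-1 sequence TGANTCA and the κB motif (GGG, any 2 bases, then TTTCC) had no match in the 9 windows, whereas 7.33% and 1.53% of all promoters hold them. The AP-1 sequence and the core can lie on the same bases. A match is a description of letters, and no match says only that these letters are not in this window.

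The superoxide dismutases moved in 3 different ways. Sod2 rose most in both species. In rat (ENSRNOG00000019048) its FPKM was 18.7, 18.7 and 20.5 in RC and 299.1, 335.5 and 318.7 in RM, a 16.3-fold rise (log2 fold change 4.03, SE 0.080, adjusted P = 1.82e-10). In mouse (ENSMUSG00000006818, chromosome 17, 13006846 to 13040063) it was 5.72, 5.16 and 5.03 in MC and 47.7, 47.9 and 45.5 in MM, a 10.8-fold rise (log2 fold change 3.43, SE 0.039, adjusted P = 1.63e-62). Of the 10 genes, Sod2 alone rose in both species by these calls, as did 9.28% of the shared genes tested. Of the genes with a called difference, it was the one with a negative value (mouse less rat), -0.60 (SE 0.088, adjusted P = 1.63e-05).

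Sod3, whose protein is secreted and bound to the matrix, went in opposite directions. In mouse (ENSMUSG00000072941, chromosome 5, 52363791 to 52371418) its FPKM was 47.2, 49.7 and 49.2 in MC and 382.1, 393.6 and 397.4 in MM, a 9.74-fold rise (log2 fold change 3.28, SE 0.030, adjusted P = 3.07e-68). In rat (ENSRNOG00000003869) it was 193.2, 216.1 and 211.1 in RC and 137.8, 121.9 and 128.4 in RM. The rat groups did not overlap, and the log2 change was -0.69 (SE 0.073, adjusted P = 5.01e-05). Of the 10 genes, Sod3 had the largest difference between the species, 3.98 (SE 0.080, adjusted P = 6.26e-16). Sod1, which codes for the copper and zinc enzyme of the cytosol, hardly moved. Its rat FPKM (ENSRNOG00000002115) was 187.2, 166.8 and 201.4 in RC and 204.4, 189.1 and 188.6 in RM, with overlapping ranges and a log2 fold change of 0.052 (95% interval -0.13 to 0.24, adjusted P = 0.664). In mouse (ENSMUSG00000022982, chromosome 16, 90220754 to 90226329) it was 30.6, 29.5 and 28.2 in MC and 25.9, 25.8 and 26.5 in MM. The MM values were lower on the FPKM scale, while with TMM the log2 change was 0.10 (SE 0.040, adjusted P = 0.0173) and with library size alone -0.18 (adjusted P = 7.22e-05), so the call of Sod1 in mouse carries no direction that holds across scalings. It was also lost without MC replicate 3 (0.068, adjusted P = 0.146). The response of Sod1 in mouse less that in rat was 0.052 (95% interval -0.14 to 0.25, adjusted P = 0.642), and with library size alone it was -0.24 (adjusted P = 0.0271 for Sod1, difference between species).

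The makeup of the superoxide dismutase transcripts was then computed as each gene's share of their summed FPKM. In the RC group, Sod2 made up 4.69% ± 0.0346 (SD, n = 3) of the sum, and in the RM group 49.6% ± 2.67, while the share of Sod3 went from 50.3% ± 3.02 to 20.2% ± 1.31. In the MC group, Sod3 already made up 58.4% ± 1.67, and in the MM group 84.2% ± 0.4, while Sod2 went from 6.35% ± 0.43 to 10.1% ± 0.4. The summed FPKM itself rose in every model library, from between 399.2 and 432.9 in RC to between 635.7 and 646.6 in RM, and from between 82.4 and 84.3 in MC to between 455.7 and 469.4 in MM. With 3 libraries against 3, the exact two-sided permutation test of the Sod2 share gave P = 0.1 in each species, which is the smallest it can give. These shares depend on the gene lengths behind the FPKM. When counts were used, the share of Sod2 was 7.68% in RC, 65.1% in RM, 15.1% in MC and 23.1% in MM.

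**Figure D3:**
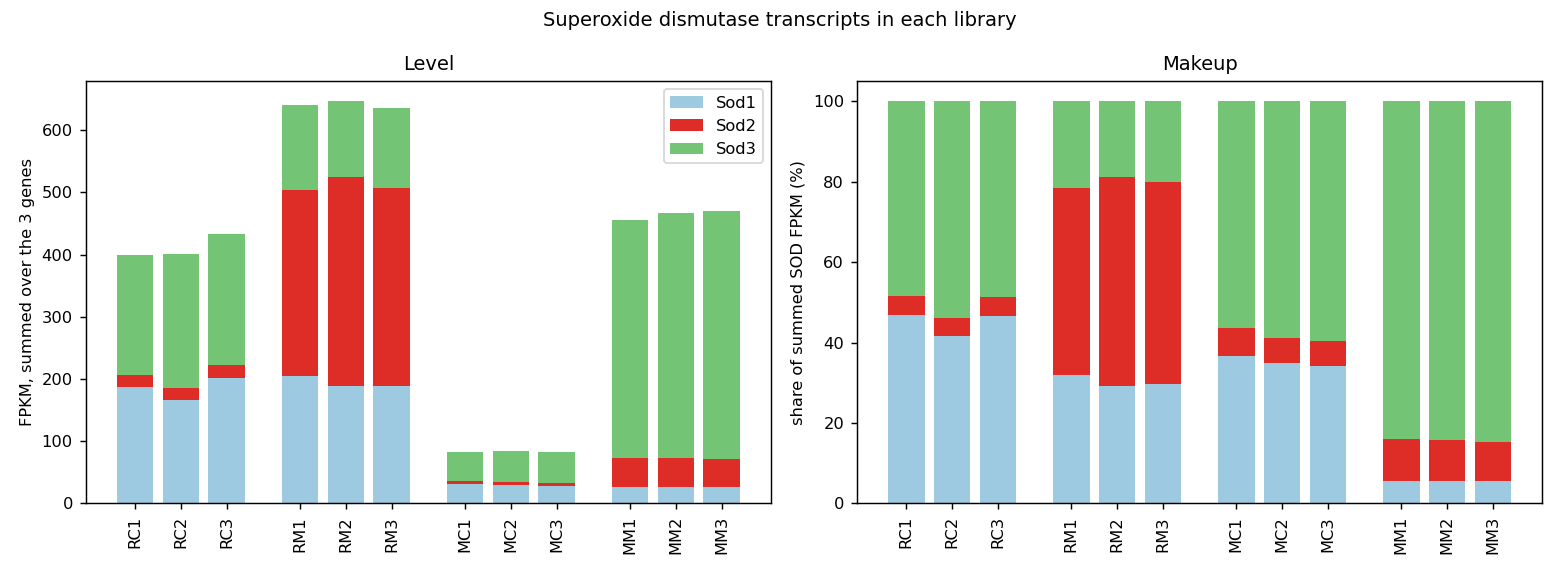
The left panel stacks the FPKM of Sod1, Sod2 and Sod3 in each of the 12 libraries, and the right panel gives each gene's share of that sum in percent. With IL-1β the added transcripts are mostly Sod2 in the rat libraries and mostly Sod3 in the mouse libraries.

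The wider antioxidant system was described through lists of 134 other genes, of which 126 were in the rat table and 131 in the mouse table, 114 and 120 were tested, and 109 were tested in both. In rat, 21 of the 114 (18.4%) were called higher, the share among all genes being 18.3%, and 45 (39.5%) lower, against 16.8%, with a median log2 fold change of -0.194 against 0.0052 for all genes. In mouse, 70 of the 120 (58.3%) were called higher, against 37.4% of all genes, and 29 (24.2%) lower, against 37.7%, with a median of 0.332 against -0.016 for all genes. With library size alone, the mouse split was 51 higher and 48 lower, where all mouse genes split 3697 higher to 8077 lower in place of 5521 to 5564, and the 10 genes first described split 8 higher to 2 lower in place of 9 higher. The difference between the species was called for 65 of 109 genes (59.6%) as positive (mouse less rat), against 31.4% of all shared genes, and for 19 (17.4%) as negative, against 32.3%. With library size alone these were 49 and 30, where all shared genes split 2189 positive to 5398 negative in place of 3430 to 3530. The surplus of lower over higher calls in rat depends on the rule for a call. Another rule took an unadjusted P under 0.05, a change of at least 0.85 on the log2 scale and an FPKM of at least 1. By it 8 of the 114 genes were higher and 8 lower, where all 13303 rat genes tested split 617 higher to 519 lower. Lower calls then no longer outnumbered higher ones, but the shares of both were above those of all genes. The same shares of all genes, 18.3% higher and 16.8% lower in rat and 37.4% higher and 37.7% lower in mouse, are the background for each list below, and with 5 to 17 genes tested 1 gene moves a list's share by several points.

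**Figure D4:**
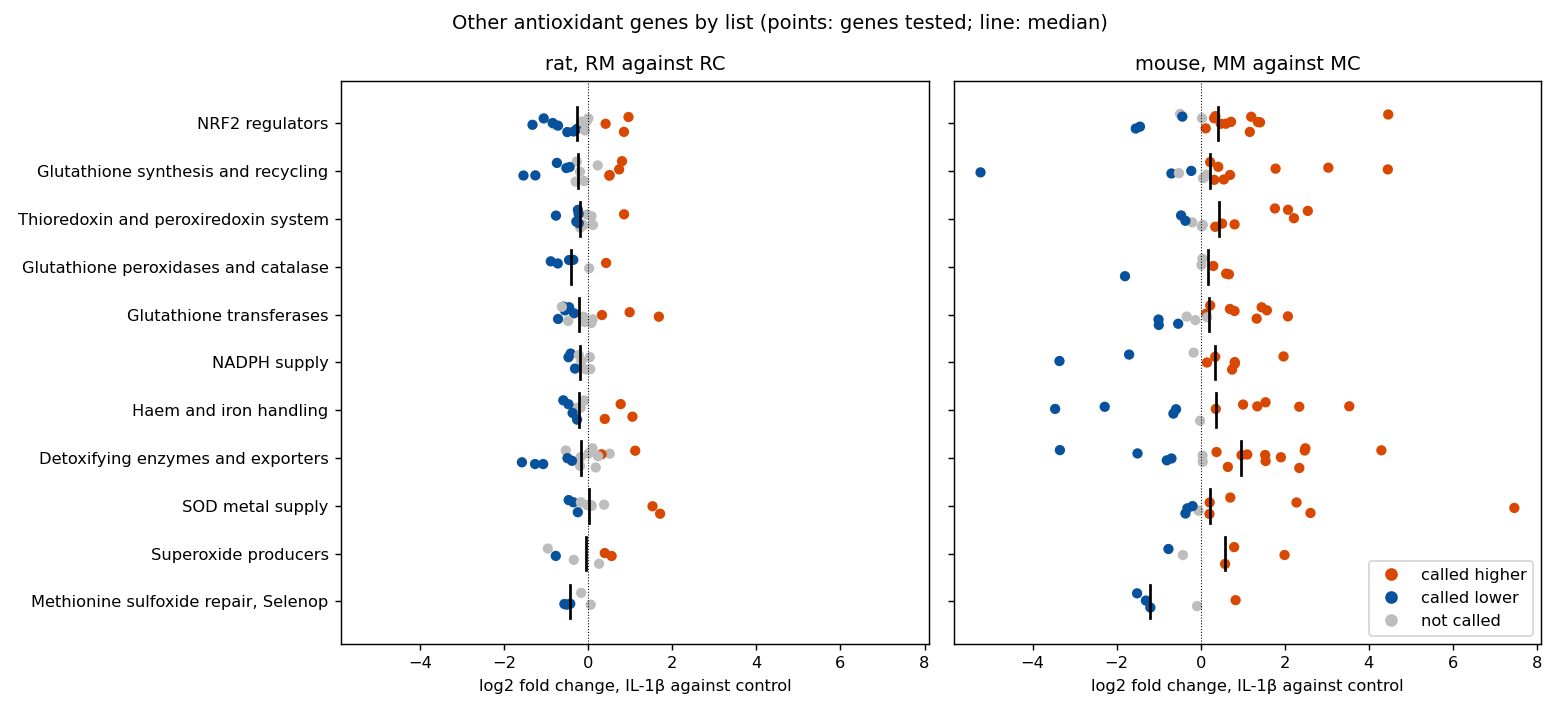
Each point is a gene of the 11 lists that was tested, placed by its log2 fold change in rat (left) or mouse (right), coloured by its call, with a line at the median of the list. The medians of 10 lists are above 0 in mouse with TMM scaling, and those of 10 lists are below 0 in rat.

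Among other regulators of NRF2, 11 of 16 (68.8%) were called higher in mouse and 3 (18.8%) lower. In rat, 3 of 15 (20%) were called higher, near the 18.3% of all genes, and 7 (46.7%) lower. Maff, which encodes a small MAF partner, rose in both species, from an FPKM of 3.6 ± 0.305 (SD, n = 3) to 65.3 ± 2.71 in mouse (log2 fold change 4.46) and from 3.56 ± 0.61 to 6.97 ± 0.418 in rat (0.96, adjusted P = 0.000533). Sqstm1, the gene of the autophagy receptor p62 that binds KEAP1, rose in mouse (log2 fold change 1.20) and fell in rat (-1.06, adjusted P = 2.70e-06).

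For glutathione synthesis and recycling, 8 of 15 genes (53.3%) were called higher and 3 (20%) lower in mouse, and 4 (28.6%) and 5 (35.7%) of 14 in rat. Slc7a11, which encodes the cystine importer that supplies cysteine for glutathione, rose in mouse from an FPKM of 1.09 ± 0.111 to 19.6 ± 1.72 (log2 fold change 4.45, adjusted P = 6.42e-60) and fell in rat from 3.78 ± 0.696 to 2.66 ± 0.425 (-0.52, adjusted P = 0.0188). The rat call of Slc7a11 was lost without RM replicate 1 (-0.40, adjusted P = 0.0785). Glrx, the gene of a glutaredoxin, rose in both, by 3.04 in mouse and 0.73 in rat on the log2 scale.

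In the thioredoxin and peroxiredoxin system, 7 of 12 genes (58.3%) were called higher and 2 (16.7%) lower in mouse, and 1 (9.09%) and 5 (45.5%) of 11 in rat. Prdx1 and Prdx6 encode peroxiredoxins, which reduce peroxides. Prdx1 had log2 fold changes of 2.08 in mouse and -0.11 in rat (adjusted P = 0.261), and Prdx6 of 1.76 in mouse and 0.11 in rat (adjusted P = 0.285), so neither was called in rat.

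Of the glutathione peroxidases and catalase, 3 of 6 genes (50%) were called higher and 1 (16.7%) lower in mouse. In rat, 1 of 6 (16.7%) was called higher, near the 18.3% of all genes, and 4 (66.7%) lower. Cat, the gene of catalase, rose in mouse by 0.60 on the log2 scale and fell in rat, from an FPKM of 134.5 ± 18.6 to 73.2 ± 1.3 (log2 fold change -0.89, adjusted P = 5.62e-05). Gpx7 fell in both, with -1.80 in mouse and -0.46 in rat.

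Among the glutathione transferases, which couple glutathione to electrophiles, 8 of 14 genes (57.1%) were called higher and 3 (21.4%) lower in mouse. In rat, 3 of 14 (21.4%) were called higher, near the 18.3% of all genes, and 5 (35.7%) lower. Gsto1 rose in mouse (2.07) and had a rat value of -0.080 (adjusted P = 0.571). Gstp1 rose in mouse (1.45) and fell in rat (-0.55, adjusted P = 0.00114).

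Of the genes for NADPH supply, 6 of 9 (66.7%) were called higher and 2 (22.2%) lower in mouse, and 3 of 8 (37.5%) were called lower in rat. Me1, the gene of cytosolic malic enzyme, rose in mouse (0.81) and fell in rat (-0.42, adjusted P = 0.00172). Idh2, the gene of the mitochondrial NADP-dependent isocitrate dehydrogenase, fell in mouse from an FPKM of 72.2 ± 2.29 to 5.8 ± 0.467 (log2 fold change -3.36), and its rat value was -0.23 (adjusted P = 0.0513), which passed the threshold without RC replicate 1 (-0.31, adjusted P = 0.00178).

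For haem and iron handling, 6 of 11 genes (54.5%) were called higher in mouse and 4 (36.4%) lower, the latter near the 37.7% of all genes. In rat, 3 (30%) and 4 (40%) of 10 were called. Slc48a1, which encodes a haem transporter, rose in mouse (1.54) and fell in rat (-0.47, adjusted P = 0.000942). Steap3, the gene of an endosomal ferrireductase, went the other way, from an FPKM of 47.5 ± 1.61 to 3.55 ± 0.266 in mouse (log2 fold change -3.47) and from 13.8 ± 1 to 18.3 ± 0.559 in rat (0.39, adjusted P = 0.00333).

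Of the detoxifying enzymes and exporters, 11 of 17 (64.7%) were called higher and 4 (23.5%) lower in mouse, and 2 (13.3%) and 5 (33.3%) of 15 in rat. Aldh3a1, an aldehyde dehydrogenase gene, rose in mouse from an FPKM of 2.77 ± 0.287 to 45.0 ± 0.852 (log2 fold change 4.30) and had a rat value of -0.39 (adjusted P = 0.0403), a call that was lost without RC replicate 2 or 3 or RM replicate 2 or 3 (adjusted P up to 0.165). Abcc1, which encodes an exporter of glutathione conjugates, had log2 fold changes of 2.47 in mouse and 0.099 in rat (adjusted P = 0.418).

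Among the genes listed for metal supply to superoxide dismutases, 6 of 10 (60%) were called higher and 3 (30%) lower in mouse. These include Slc25a39 (called higher) and Mtch2 (called lower), whose part in that supply was not tested. In rat, 2 of 10 (20%) were called higher, near the 18.3% of all genes, and 3 (30%) lower. Slc25a39 was among those called lower in rat (-0.47, adjusted P = 0.00259), and Mtch2 was not called there. Slc39a14, the gene of the ZIP14 carrier of zinc, iron and manganese, rose in both, from an FPKM of 11.0 ± 0.0921 to 43.9 ± 0.907 in mouse (log2 fold change 2.28) and from 29.3 ± 1.76 to 96.9 ± 4.88 in rat (1.71, adjusted P = 8.42e-08). Atp7b, which encodes a copper-transporting ATPase, rose in mouse from 26 counts over the MC group to 4207 over the MM group (log2 fold change 7.46), and its rat value was 0.38 (adjusted P = 0.0802).

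Few genes of superoxide producers had enough counts to be tested. Of the 14 NADPH oxidase, dual oxidase and xanthine dehydrogenase genes listed, 6 were tested in rat, 2 (33.3%) called higher and 1 (16.7%) lower, the latter at the 16.8% of all genes. In mouse 5 were tested, 3 (60%) called higher and 1 (20%) lower. Xdh, the gene of xanthine dehydrogenase, rose in both (1.99 in mouse and 0.56 in rat, adjusted P = 0.00015), as did Cyba, the gene of the p22phox subunit (0.58 and 0.39, adjusted P = 0.0106), although the rat call of Cyba was lost without RM replicate 1 (adjusted P = 0.0507). The difference between the species of Cyba was 0.19 (adjusted P = 0.174), and it passed without RC replicate 1 (0.29, adjusted P = 0.0141).

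The genes for repair of oxidised methionine, with selenoprotein P, formed the list with a negative median in mouse (-1.2), where 1 of 5 genes (20%) was called higher and 3 (60%) lower, and 3 of 5 (60%) were called lower in rat. Msra rose in mouse (0.83) and fell in rat (-0.57, adjusted P = 0.0252), a call lost without RC replicate 3, RM replicate 2 or RM replicate 3 (adjusted P up to 0.0850). Msrb3 fell in mouse (-1.20) and had a rat value of 0.058 (adjusted P = 0.675).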

How the data were processed

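RNA-seq libraries of rat and mouse chondrocytes were analysed, 12 in all. The authors deposited raw counts per Ensembl gene and FPKM values for each library, in 1 table per species. The submitters' processing notes list HISAT2 and HTSeq 0.11.2 and the builds GRCm38 and Rnor_6.0, with no roles. Dividing each count by a whole-number length and the library total gave the deposited FPKM within 0.1% for 100% of 63900 rat and 63864 mouse values. Nothing used here says that the library kit or the counting kept strand. The mouse lengths of the 10 genes matched GENCODE M21 merged exons exactly, from which coordinates were taken, and no rat coordinates of the files' build are given.

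Differential expression was computed from the counts with edgeR 4.0.16 under R 4.3.3 (filterByExpr, TMM, glmQLFit and glmQLFTest), separately per species. This left 13303 rat and 14774 mouse genes. The biological coefficient of variation was 0.106 in rat and 0.0318 in mouse, so smaller changes could be called in mouse. The difference between the species was tested as (MM-MC)-(RM-RC) over 10913 shared symbols, with scaling set within each species. Intervals are 95% intervals of the fit. Alternatives were DESeq2 1.42.0, limma 3.58.1 on log2(FPKM + 1) and log2(FPKM + 0.1), library size alone, no filter, the replicate number as a block, the study's criteria (unadjusted P under 0.05, fold change of 0.85, read here as log2 since the study names no scale, and FPKM of at least 1, with adjusted P and 0.85 for the species difference) and each library left out. Only edgeR, DESeq2 and limma on scaled counts with 1 added were also run on simulated counts. Those counts held no shift in library composition such as that in mouse, and the other alternatives were not simulated. No replicate pair agreed within sampling noise (chi-square per degree of freedom 1.9 to 2.48 in mouse and 6.07 to 27.8 in rat).

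The 10 genes, the lists and the tests were chosen with earlier results of these data known. From every wider list the 2 genes ranked first by P in the species difference were named.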

Additional observations from a re-analysis of the deposited data

Results flagged for a closer look

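The response to IL-1β differed between rat and mouse in the test of the difference itself (edgeR, adjusted P under 0.05) for the following genes, given as the mouse log2 fold change less the rat one. Of the 10 antioxidant genes, the value was positive for Nfe2l2 (2.15), Keap1 (0.21), Hmox1 (3.74), Nqo1 (3.48), Gclc (2.86), Gclm (1.13), Txnrd1 (1.88) and Sod3 (3.98), and negative for Sod2 (-0.60). Of the genes named from the wider lists, which were picked by this same test and so add no independent support, the value was positive for Sqstm1 (2.26), Maff (3.50), Glrx (2.30), Slc7a11 (4.97), Prdx1 (2.19), Prdx6 (1.65), Cat (1.50), Gsto1 (2.15), Gstp1 (2.00), Me1 (1.23), Slc48a1 (2.01), Aldh3a1 (4.69), Abcc1 (2.38), Atp7b (7.09), Slc39a14 (0.57), Xdh (1.44) and Msra (1.40). It was negative for Gpx7 (-1.35), Idh2 (-3.13), Steap3 (-3.86) and Msrb3 (-1.26). Of these, the value of Keap1 was closest to 0, and its sign depends on the scaling. In groups of 3 libraries no single library was tested for standing apart.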

How the results depend on the processing

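The number of antioxidant genes called in rat stayed at 4 under every alternative except the study's criteria, which left 2 (Sod2 and Nqo1), and under those criteria the wider lists had 16 genes called in rat (8 higher and 8 lower) in place of 66 (21 and 45) and 48 in mouse (33 and 15) in place of 99 (70 and 29). Without any 1 library, the counts of called genes were 4 in rat, 8 to 10 in mouse and 8 to 9 for the difference, and 48 to 76 and 95 to 101 in the wider lists of rat and mouse. As shares of counts, the Sod2 share rose by 57.4 points in rat and 8.06 points in mouse, in place of 44.9 and 3.79, and without 1 library by 43.7 to 46.3 and 3.62 to 4.04. Keap1 and Sod1 in mouse changed sign with library size alone (-0.18 and -0.18), limma on log2(FPKM + 1) (-0.17 and -0.17) and limma on log2(FPKM + 0.1) (-0.18 and -0.17), which all lack the TMM factors, and so did, in that order, Keap1, difference between species (-0.082, -0.074 and -0.079), Sod1, difference between species (-0.24, -0.24 and -0.24), and Cyba, difference between species (-0.11, -0.11 and -0.11). The value of Gclc, RM against RC, was -0.0030 with DESeq2. Without 1 library, the log2 values ran through 0 in rat for Nfe2l2 (-0.077 to 0.12), Gclc (-0.040 to 0.065), Sod1 (-0.023 to 0.12), Gsto1 (-0.19 to 0.0077) and Msrb3 (-0.016 to 0.13), none of them called, and for the difference of Sod1 (-0.012 to 0.13). Over all genes, the study's criteria called 1136 genes in rat, 3781 in mouse and 3304 for the difference, in place of 4667, 11085 and 6960. Correlations of same-numbered libraries lay between -0.0977 and 0.0849, within the -0.185 to 0.162 of differently numbered ones. A weak pairing, or one under another numbering, cannot be told from these values. With the replicate block, 4 of the 10 genes were called in rat, 9 in mouse and 8 for the difference, where Keap1 was lost (adjusted P = 0.0640). Idh2 in rat passed the threshold with the block, with DESeq2 and without the filter on low counts (adjusted P between 0.0353 and 0.0495 for Idh2, RM against RC).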
